A study of Mus musculus with 6 samples.

Results

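The Wnt ligands described here are the products of 9 genes, Wnt2, Wnt2b, Wnt4, Wnt5a, Wnt5b, Wnt6, Wnt9a, Wnt9b and Wnt11, chosen by name and matched by gene symbol to 9 of the 24973 probe sets of the array. Each was measured in ventral aortic tissue, taken from underneath the dorsal aorta, and in dorsal aortic tissue, which lies above the vessel and below the notochord. Both tissues were laser-microdissected from cryosections of unfixed C57Bl/6 mouse embryos at embryonic day 11.5 (E11.5), when the aorta-gonad-mesonephros region forms hematopoietic stem cells, and no embryo carried a labelled mutation or treatment. There were 3 arrays per tissue, labelled biological replicates 1 to 3. Their number limits the precision of every value, and how many embryos went into an array is not given in the sources used here. All levels are log2 expression values. A change of 1 is a doubling of signal, and levels of different genes on such arrays cannot be set against each other, because each probe set has its own brightness. In tissue pieces of mixed cells, fewer cells of a type and less RNA per cell cannot be told apart.

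Wnt proteins are secreted, lipid-modified signals that act over short distances. The acyltransferase Porcn attaches the lipid and the carrier Wls brings the protein to the cell surface, where it binds a Frizzled receptor. With the co-receptors Lrp5 and Lrp6 this stabilises beta-catenin, which switches on targets such as Axin2 and Lef1, whereas with Ror1, Ror2 or Ryk it acts on cell polarity and movement without beta-catenin. Several of the 9 ligands are known from tissues next to the aorta: Wnt4 and Wnt9b drive the formation of nephric tubules, Wnt2 and Wnt2b come from the mesoderm around the foregut, and Wnt5a directs tissue elongation. In zebrafish, Wnt9a is needed for the early expansion of hematopoietic stem cells.

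Of the 9 ligands, Wnt5a was the one whose levels separated the tissues, being lower on every ventral array than on every dorsal array, by 0.94 on the log2 scale. The ventral and dorsal arrays of the other 8 overlapped, so that 1 of 9 ligands separated the tissues, where 12.2% of all named genes did. For 7 of the 9 the difference was under 0.25 in size, as it was for 72.2% of named genes. No ligand passed the test across genes: 0 of the 5 ligands above the brightness filter were called at an adjusted p of 0.05 (limma with Benjamini-Hochberg adjustment), where 0.515% of the 12028 tested genes were. In the fit over all 24015 named genes 0 of the 9 were called, where 0.0416% of genes were. At an unadjusted p of 0.05 the count was 1 of 5 in the first fit and 1 of 9 in the second, Wnt5a in both, against 10.7% and 8.12% of genes.

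Most of the ligands lay near the level of the median probe set, and 6 of the 9 averaged between 4 and 5. Wnt4, Wnt5a, Wnt6, Wnt9a and Wnt11 averaged 4.52 or more over the 6 arrays. That level, the median probe set, was the filter for the main test. Wnt9a passed narrowly (mean 4.523 against 4.521), and its ventral mean of 4.39 was under the filter level. Wnt2, Wnt2b, Wnt5b and Wnt9b were below it and their tests come from the fit over all named genes. As a guide to what a dim probe set reads, the 1091 probe sets of olfactory receptors, a family known for its role in the nose, had a median of 2.59 and a 95th percentile of 4.29, and 8 of the 9 ligands averaged above that percentile. Wnt2 did not (mean 3.70). Within ventral tissue alone Wnt5a did not either (mean 4.17), while its dorsal mean was 5.11. Since probe sets differ in brightness, this does not settle whether a given transcript was present.

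**Figure D1:**
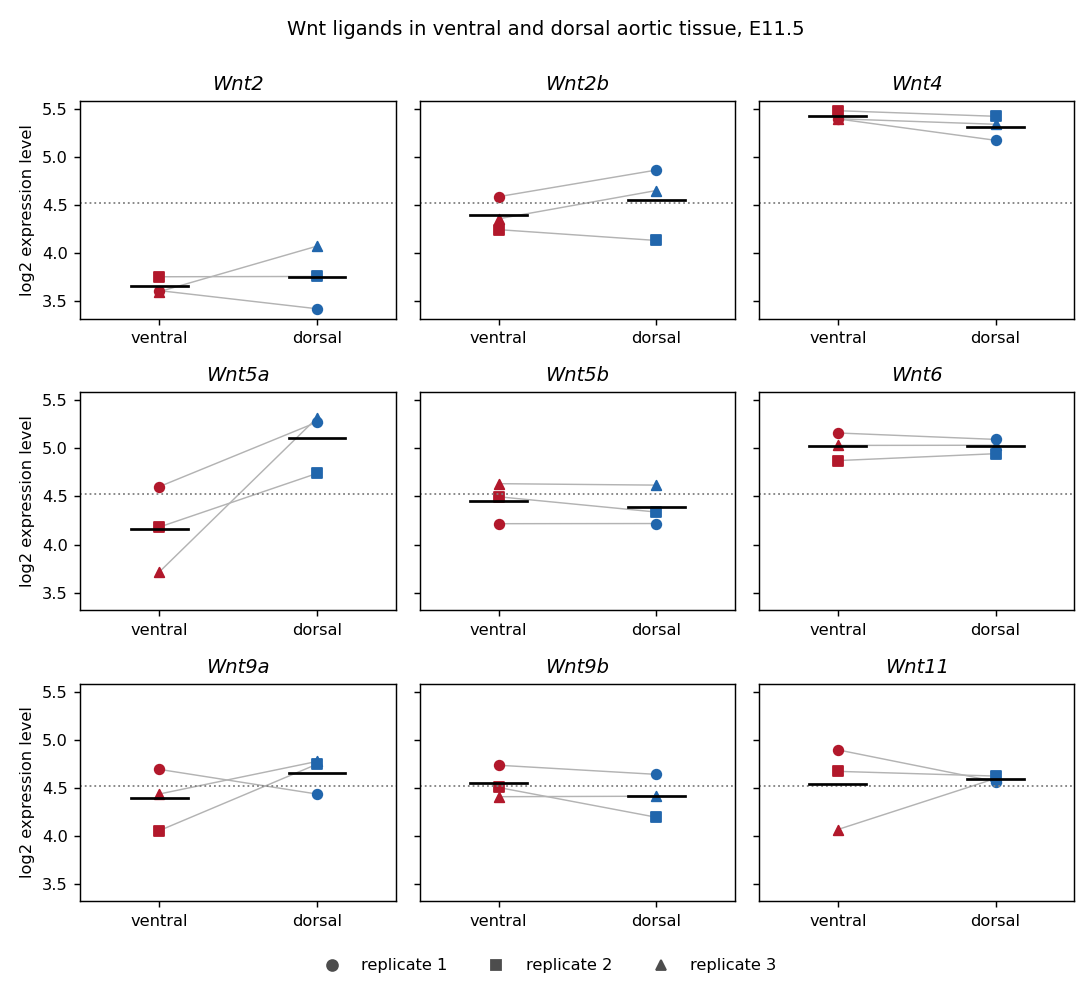
Log2 expression level (vertical axis) of each of the 9 Wnt ligands on the 3 ventral and the 3 dorsal arrays. Grey lines join arrays with the same replicate number, black bars are tissue means and the dotted line is the filter level of 4.52; the tissues separate for Wnt5a, whose 3 ventral arrays sit between 3.71 and 4.60 and whose 3 dorsal arrays sit between 4.74 and 5.32.

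The opposite sides of the aorta were distinguishable by their mesenchymal markers. Gata6 (log2 difference 3.19 ± 0.19, SE), Tcf21 (4.70 ± 0.29) and Hlx (2.00 ± 0.19), transcription factors of visceral mesoderm, were higher in ventral tissue, as was the pericyte gene Rgs5 (2.18 ± 0.24). Pax1 (−2.60 ± 0.24) and Col2a1 (−1.75 ± 0.19), genes of sclerotome and early cartilage, were lower there. Their limma adjusted p ran from 0.00336 for Gata6 to 0.0258 for Col2a1 and Rgs5, and Rgs5 did not pass without the replicate number as a block (adjusted p = 0.0732). In the fit over all named genes Gata6 and Tcf21 kept their calls (adjusted p = 0.0197 and 0.0259), while Hlx (0.0647), Pax1 (0.0756), Col2a1 (0.0816) and Rgs5 (0.106) did not pass. The calls of the filtered fit covered 3 of 6 tested visceral mesoderm genes, 1 of 6 smooth muscle and pericyte genes and 2 of 6 sclerotome genes. Over all tested genes 0.308% were called higher and 0.208% lower in ventral tissue. Because the lists were chosen with earlier results of these data known, these counts describe the lists and are no independent support. Of the visceral mesoderm genes 1 had a negative difference, and of the sclerotome genes 1 had a positive one. Of the 3 named notochord genes, Shh passed the filter and was not called (−0.36 ± 0.25, adjusted p = 0.686). Noto, Foxa2 and the nephric genes Pax2, Pax8, Lhx1 and Cdh16 averaged below the filter level in each tissue. No tested gene was called in the lists for muscle precursors, coelomic epithelium, nephric cells, endothelium, macrophages, erythroid cells and sympathoadrenal cells. Among those that passed the filter, 4 of 4 coelomic genes (median 1.05), 6 of 6 endothelial genes (median 0.57) and 5 of 5 macrophage genes (median 0.36) nevertheless had positive differences, and 3 of 3 erythroid genes had negative ones (median −0.61). At an unadjusted p of 0.05 the counts were 3, 2, 2 and 2 in the same order, against 10.7% of all tested genes. Differences were positive for 47.7% of all tested genes. The smooth muscle and pericyte genes were positive in 6 of 6 (median 1.11), 4 of them at an unadjusted p of 0.05. The part of these cell types in the ligands' differences was not tested. The dorsal replicate 3 array stood apart from the rest in its neural tube genes: Sox2 read 9.69 there and at most 6.50 on the other 5 arrays, Pax6 read 5.87 there and at most 3.69 elsewhere, and Sox1 read 5.65 there and at most 3.19 elsewhere.

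Wnt5a, the best known ligand of the beta-catenin-independent branch, had levels of 4.60, 4.18 and 3.71 on ventral replicates 1, 2 and 3, and of 5.27, 4.74 and 5.32 on dorsal replicates 1, 2 and 3. The highest ventral array was thus still under the lowest dorsal one. A separation in this direction was seen for 7.88% of tested genes. Wnt5a averaged 4.17 ± 0.44 in ventral and 5.11 ± 0.32 in dorsal tissue (SD, n = 3 each), a log2 difference of −0.94 ± 0.25 (SE; 95% interval −1.55 to −0.34; limma adjusted p = 0.234). Its ventral mean was under the filter level of 4.52 and under 4.29, the 95th percentile of olfactory receptor probe sets, and it passed the filter through its dorsal arrays, so no fold is given. The 3 same-numbered pairs differed by −0.67, −0.56 and −1.60 and all had the same sign, with the widest gap in pair 3. Of all tested genes, 1.33% had a difference as low as this or lower.

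The size of the Wnt5a difference rested in part on pair 3. Without that pair it was −0.61 (adjusted p = 0.481), and without the block and without the dorsal 3 array, the one with high neural tube genes, it was −0.84 (adjusted p = 0.449). In pair 3, ventral 3 (3.71, ventral mean 4.17) lay further from its tissue mean than dorsal 3 (5.32, dorsal mean 5.11). The dorsal 1 array, whose neural tube genes averaged 0.39 below their mean over the 6 arrays, read 5.27 for Wnt5a, close to the 5.32 of dorsal 3. The 6 sclerotome genes, taken as mean deviations from each gene's own mean, lay at −0.64, −0.92 and −0.82 on ventral replicates 1 to 3 and at 0.97, 1.09 and 0.32 on dorsal replicates 1 to 3. They separated the tissues in the same direction as Wnt5a, and 2 of the 6, Pax1 and Col2a1, were called lower in ventral tissue, where 0.208% of tested genes were. In the fit over all named genes 0 of the 6 were called. The erythroid list separated the tissues in this direction too, with 0 calls. It lay at −0.46, 0.01 and −0.38 on ventral and at 0.37, 0.30 and 0.16 on dorsal replicates 1 to 3. The visceral mesoderm, smooth muscle and pericyte, and macrophage lists separated the tissues in the opposite direction. The neural tube list ranged from −0.60 to −0.20 on the ventral arrays and from −0.39 to 1.71 on the dorsal ones, and 0 of its 3 tested genes were called. Within dorsal tissue the order differed, since dorsal 2 had the highest sclerotome level and the lowest Wnt5a level. The part of the tissue's makeup in the Wnt5a difference was not tested.

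**Figure D2:**
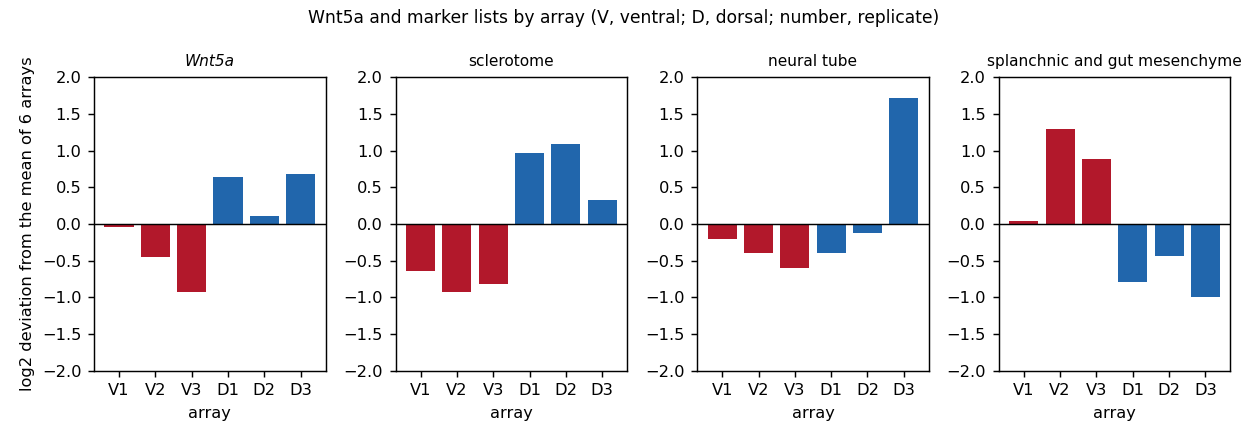
Deviation from the mean of the 6 arrays on the log2 scale (vertical axis) for Wnt5a and for the averages of 3 marker lists, by array. Wnt5a and the sclerotome list are below 0 on all 3 ventral arrays and above 0 on all 3 dorsal arrays, whereas the neural tube list is high on dorsal replicate 3 (1.71). For Wnt5a, ventral replicate 1 is close to 0 (4.60 against a mean of 4.64), as is dorsal replicate 2 (4.74).

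Wnt5b, the closest relative of Wnt5a and a ligand known from growing cartilage, gave no such separation. It read 4.22, 4.50 and 4.63 on ventral replicates 1 to 3, against 4.22, 4.34 and 4.62 on dorsal replicates 1 to 3. Pairs 1 and 3 nearly coincided and pair 2 differed by 0.16. The mean difference was 0.06 ± 0.14 (SE; 95% interval −0.29 to 0.40; limma adjusted p = 0.961). Taken within each array, the difference between Wnt5a and Wnt5b shifted by −1.0 between ventral and dorsal tissue, with pairs at −0.67, −0.72 and −1.62. In an exact permutation test over all 20 splits of the arrays (two-sided) this gave p = 0.1, the smallest that 3 against 3 arrays allow, and 0.3 after adjustment over the 3 pairs of related ligands tested.

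Wnt11, another ligand of the branch that bypasses beta-catenin and a known product of nephric duct tips and the heart, was at 4.89, 4.67 and 4.07 on ventral replicates 1 to 3, while the dorsal arrays read 4.57, 4.62 and 4.60. The dorsal values fell within a narrow band (SD 0.03, n = 3) and the ventral ones spread on either side of it (SD 0.43, n = 3). The mean difference was −0.05 ± 0.22 (SE; limma adjusted p = 0.964), and its sign rested on ventral 3, since without pair 3 it was 0.19 (adjusted p = 0.901). Ventral 3 was also the lowest array for Wnt5a.

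Wnt4, which in the nephric mesenchyme and the early gonad directs tubule formation and ovarian development, read 5.40, 5.48 and 5.40 on ventral and 5.17, 5.42 and 5.34 on dorsal replicates 1 to 3. All 3 pairs were higher on the ventral side, by 0.22, 0.06 and 0.06, but the arrays overlapped. The difference was 0.11 ± 0.17 (SE; 95% interval −0.30 to 0.52; limma adjusted p = 0.886), so the interval reached no further than a 1.44-fold higher or a 1.23-fold lower ventral signal. A consistent sign over the 3 pairs, in either direction, was found for 2 of the 9 ligands, Wnt4 and Wnt5a, and for 29.3% of all named genes.

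Wnt6, an epithelial ligand of ectoderm and nephric duct, was the flattest of the 9, with 5.16, 4.87 and 5.03 on ventral and 5.09, 4.94 and 5.03 on dorsal replicates 1 to 3. Its whole range over the 6 arrays was 0.29, and the ventral minus dorsal difference was 0.00 ± 0.17 (SE; 95% interval −0.41 to 0.41; limma adjusted p = 0.998). The interval allowed up to a 1.33-fold difference towards the dorsal side and a 1.32-fold difference towards the ventral side. The SD over the 6 arrays stood at the 4.17th percentile of tested genes for Wnt6 and at the 4.78th for Wnt4, and at the 93.4th for Wnt5a.

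Wnt9b, which the nephric duct releases to induce tubules, read 4.73, 4.50 and 4.41 on ventral and 4.64, 4.19 and 4.41 on dorsal replicates 1 to 3. Neither tissue stood out, with a difference of 0.13 ± 0.14 (SE; 95% interval −0.23 to 0.50; limma adjusted p = 0.888). The nephric genes Pax2, Pax8, Lhx1 and Cdh16 averaged 2.83 to 3.71 in ventral and 2.75 to 3.60 in dorsal tissue, all under the filter level. Of the 8 genes of that nephric list 3 passed the filter and 0 were called, and its level ranged from −0.23 to 0.03 on ventral and from −0.15 to 0.29 on dorsal arrays.

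Wnt9a, its relative and the ligand tied to blood stem cells in zebrafish, read 4.69, 4.05 and 4.44 on ventral and 4.44, 4.75 and 4.77 on dorsal replicates 1 to 3. Pair 1 was higher on the ventral side by 0.26, and pairs 2 and 3 were lower by 0.69 and 0.34 (differences of −0.69 and −0.34). The mean difference of −0.26 ± 0.23 (SE; 95% interval −0.81 to 0.29; limma adjusted p = 0.777) was the second largest of the 9 and within the spread between arrays. Relative to Wnt9b it shifted by −0.39, with pairs at 0.16, −1.0 and −0.33 (exact permutation p = 0.3, two-sided, and 0.45 after adjustment over the 3 ligand pairs).

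Wnt2 and Wnt2b, which together instruct the foregut to form lung, were both below the filter level. Wnt2 read 3.61, 3.75 and 3.60 on ventral and 3.42, 3.76 and 4.07 on dorsal replicates 1 to 3, a difference of −0.10 ± 0.18 (SE; limma adjusted p = 0.947). Wnt2b read 4.59, 4.24 and 4.36 on ventral and 4.86, 4.13 and 4.65 on dorsal replicates 1 to 3, a difference of −0.15 ± 0.16 (SE; limma adjusted p = 0.880). Every ventral array of either gene lay within the range of its dorsal arrays. The intervals reached a 1.46-fold lower ventral signal for each gene and a 1.28-fold higher one for Wnt2 and a 1.18-fold higher one for Wnt2b, so differences of that size between the tissues remain possible. Their difference from each other shifted by 0.06 between the tissues, with pairs at 0.47, −0.12 and −0.18 (exact permutation p = 0.9, two-sided, also after adjustment).

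**Figure D3:**
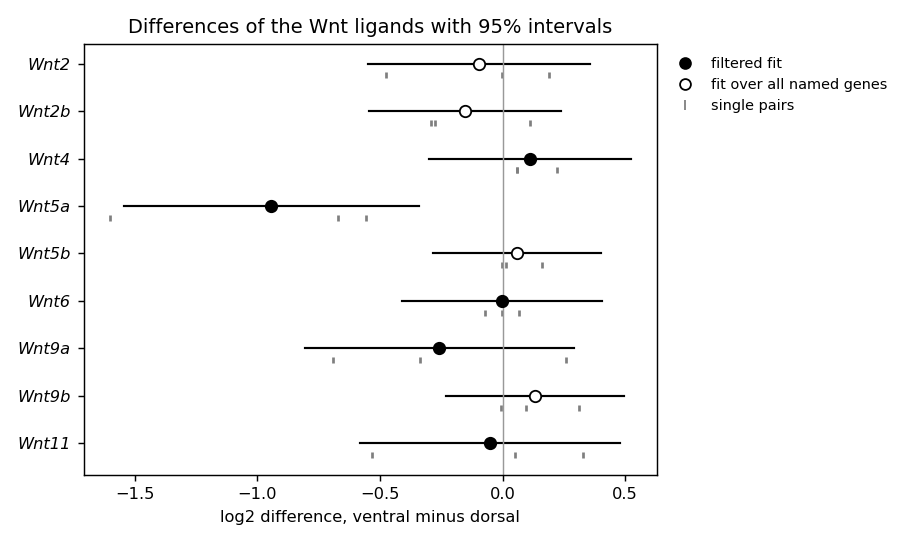
Ventral minus dorsal difference (horizontal axis, log2) of each ligand with its 95% interval from limma; filled points come from the fit of filtered genes, open points from the fit over all named genes, and grey ticks are the 3 single pairs. The interval of Wnt5a (−1.55 to −0.34) lies below 0 and those of the other 8 ligands include 0.

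Some of these genes have a second Wnt gene next to them in the genome, by gene order in the RefSeq annotation. Wnt6 adjoins Wnt10a on chromosome 1, and on chromosome 11 Wnt9a adjoins Wnt3a and Wnt9b adjoins Wnt3. None of these 3 neighbours separated the tissues. Wnt10a read 4.64, 4.44 and 4.68 on ventral and 5.22, 4.35 and 4.77 on dorsal replicates 1 to 3. Wnt3a (−0.16 ± 0.18, SE) and Wnt3 (−0.22 ± 0.15) were below the filter level, with limma adjusted p of 0.897 and 0.804 over all named genes. Wnt2 and Wnt2b lie beside related genes as well, St7 and St7l.

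The other 10 mouse Wnt genes were measured too, and Wnt7a and Wnt10a passed the filter. Neither was called, at −0.10 ± 0.24 and −0.20 ± 0.20 (SE; limma adjusted p = 0.940 and 0.812). Wnt1 and Wnt3a are the ligands of the dorsal neural tube, and on the dorsal 3 array with its high neural tube genes they read 3.46 and 3.75, within 3.13 to 3.70 and 3.18 to 3.77 on the other 5. Wnt7a, a ligand of the spinal cord wall, had its highest value of 5.63 on that array, and without pair 3 its difference was 0.21 (adjusted p = 0.881). The readings of Wnt1 and Wnt3a were all under 4.29, the 95th percentile of olfactory receptor probe sets. The part of neural tube tissue in the values of these ligands was not tested.

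Tested genes of the machinery that releases and receives Wnt ligands showed no call on either side. Wls was at 0.12 ± 0.17 and Porcn at −0.08 ± 0.20 (SE; limma adjusted p = 0.873 and 0.941). Of 9 tested Frizzled receptors 5 had positive and 4 negative differences and 0 were called, with a median of 0.02 beside −0.01 over all tested genes. Fzd8 read 5.48, 5.22 and 5.83 on ventral and 5.97, 5.89 and 6.85 on dorsal replicates 1 to 3 (−0.73 ± 0.19, limma adjusted p = 0.226). Fzd9 read 5.30, 5.26 and 5.09 on ventral and 5.76, 5.84 and 6.19 on dorsal replicates 1 to 3 (−0.71 ± 0.20, limma adjusted p = 0.267). Both were lower on every ventral array than on any dorsal array, in the direction of Wnt5a, without passing. Fzd3 separated the tissues in this direction too (limma adjusted p = 0.479), and 7.88% of tested genes did. Fzd8, Fzd9 and Fzd3 had their highest values on dorsal 3 (6.85, 6.19 and 8.16), the array with high neural tube genes. The part of that array's makeup was not tested. At an unadjusted p of 0.05, 2 of the 9 receptors passed, Fzd8 and Fzd9, against 10.7% of tested genes.

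Among 8 tested co-receptors and alternative receptors 0 were called and the median was 0.00. The value farthest from 0 was that of Ror1, a receptor tyrosine kinase that binds Wnt5a. It lay on the opposite side from its ligand, and neither gene was called in the main fit. Ror1 read 6.95, 7.68 and 8.42 on ventral and 5.90, 5.61 and 6.07 on dorsal replicates 1 to 3, with no overlap. A separation in this direction was seen for 7.50% of tested genes. Ror1 averaged 7.68 ± 0.74 in ventral and 5.86 ± 0.23 in dorsal tissue (SD, n = 3 each), a log2 difference of 1.83 ± 0.28 (SE; limma adjusted p = 0.0662). Ror1 passed in 2 of 11 alternatives, without pair 1 (2.21, adjusted p = 0.0225) and with a mean-variance trend (adjusted p = 0.0401). It did not pass without the block (adjusted p = 0.0947), without the filter (0.181) or with the filter at the 25th percentile (0.120). Nor did it pass without pair 2 (0.111) or without pair 3 (0.157). Its relative Ror2 differed by 0.21 ± 0.24 (adjusted p = 0.843), and the proteoglycan Gpc6 by 0.54 ± 0.18 (adjusted p = 0.362).

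Secreted modulators held the 2 pathway calls. Of 10 tested antagonists, 1 was called higher in ventral tissue, where 0.308% of all tested genes were: Frzb, a decoy that resembles the ligand-binding part of Frizzled, read 5.83, 5.60 and 5.83 on ventral and 4.21, 3.51 and 3.87 on dorsal replicates 1 to 3 (1.89 ± 0.18, SE; limma adjusted p = 0.0208). Frzb passed the filter through the ventral arrays alone, and all 3 dorsal values were below 4.29, so its call and the size of its difference rest on a dim dorsal signal. The call was lost without pair 3 (adjusted p = 0.0507) and without the filter (0.0647). Sfrp1, of the same family, was at 0.85 ± 0.20 (adjusted p = 0.189), and Dkk2, which blocks Lrp5 and Lrp6, at −1.09 ± 0.25 (adjusted p = 0.179). The median of the antagonists was 0.17.

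Of 6 tested genes of the R-spondin axis, which prolongs Wnt reception at the cell surface, 1 was called, Rspo2, lower in ventral tissue, as 0.208% of all tested genes were. It read 5.06, 4.44 and 4.56 on ventral and 7.24, 6.35 and 5.73 on dorsal replicates 1 to 3, a log2 difference of −1.75 ± 0.24 (SE; limma adjusted p = 0.0468). Without the replicate number as a block it did not pass (adjusted p = 0.127), nor with the number as a random block (adjusted p = 0.10 with an estimated correlation). It also missed the threshold without the filter (0.133), with the filter at the 25th percentile (0.0916), without pair 1 (0.0842) and without pair 2 (0.0915). The list's median was −0.35. Lgr4, a receptor of R-spondins, was at −0.62 ± 0.41 and Rspo1 at −0.46 ± 0.32 (adjusted p = 0.677 and 0.696).

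Tested genes of the beta-catenin core, the beta-catenin targets and planar polarity were not called on either side. Of 16 tested genes of the beta-catenin core 13 had negative differences and 0 were called (median −0.08), and over all tested genes 6295 of 12028 were negative. Lef1, a DNA-binding partner of beta-catenin and also its target, was at −0.80 ± 0.22 (SE; limma adjusted p = 0.249), and Bcl9, a coactivator of beta-catenin, at −0.37 ± 0.17 (adjusted p = 0.512). Lef1 and Bcl9 were lower on every ventral array than on any dorsal array, as 7.88% of tested genes were. Of 9 tested beta-catenin targets 7 were negative and 0 called, with a median of −0.39 that moved to −0.08 without pair 3. Axin2, a feedback inhibitor of the pathway, read 5.61, 5.21 and 5.31 on ventral and 5.81, 5.34 and 6.15 on dorsal replicates 1 to 3, with overlap (−0.39 ± 0.21, adjusted p = 0.583). Bambi, listed as a target and known as a decoy receptor for BMP signals, went the other way at 0.93 ± 0.21 (adjusted p = 0.168). Of 13 tested planar polarity genes 10 were positive and 0 called (median 0.06), the extremes being Dact1 at 1.16 ± 0.25 (adjusted p = 0.161) and Fzd3 at −0.66 ± 0.28 (adjusted p = 0.479). Bambi and Dact1 were higher on every ventral array than on any dorsal array, as 7.50% of tested genes were.

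**Figure D4:**
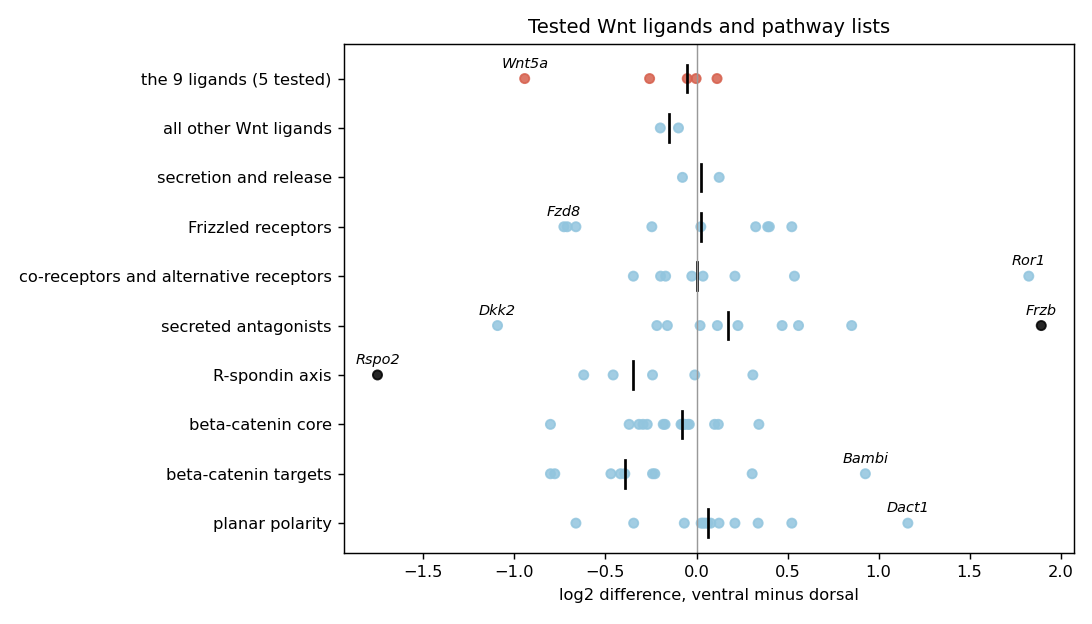
Ventral minus dorsal difference (horizontal axis, log2) of each tested gene in the ligand group and in 9 lists of Wnt pathway genes. Vertical bars are list medians and black points are genes with an adjusted p under 0.05, which were Frzb (1.89) and Rspo2 (−1.75); some genes are in more than 1 list.

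The genes whose pattern over the 6 arrays was most like that of Wnt5a were Megf9, Zik1 and Sox11. Likeness was measured as the root mean square difference of values centred on each gene's mean, which was 0.151, 0.151 and 0.155, beside a median of 0.607 over tested genes. Sox11, a transcription factor of neural and mesenchymal progenitors, read 6.49, 6.19 and 5.62 on ventral and 6.79, 6.50 and 7.19 on dorsal replicates 1 to 3, and none of the 3 genes was called (limma adjusted p = 0.348 for Megf9, 0.162 for Zik1 and 0.443 for Sox11). At the other end of the ligands, the patterns closest to the nearly flat Wnt4 were those of Pold4, Wdr59 and Slc25a4, at 0.031, 0.037 and 0.041 (median 0.262).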

How the data were processed

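Total RNA was amplified with the Ovation Pico V2 system and measured on Affymetrix Mouse Gene 2.0 ST arrays, per the labels. The deposited log2 values, 1 per probe set and array, were made by the authors with Affymetrix Expression Console and RMA (background correction, quantile normalization and probe summary), per the submitters' processing notes. Software versions are not given here. Amplification of so little RNA can distort low levels, and such arrays compress differences near background. Array medians were 4.49 to 4.55.

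Symbols came from the platform table (24015 probe sets with 1 symbol, 0 changed by a RefSeq gene table, 958 unnamed here). Gene order came from that RefSeq table of GRCm38.p6. Ventral minus dorsal was tested with lmFit and eBayes of limma 3.58.1 (R 4.3.3), holding the replicate number fixed as a block. The two-sided p-values were adjusted by Benjamini-Hochberg over the 12028 genes averaging 4.52 or more, and again over all 24015 named genes for ligands below that level. The fit was also run on simulated data, in which every added difference was larger than that of any ligand. That run cannot show whether differences of the ligands' size would be called. The labels say that the tissues came from the same embryos, not that a number marks an embryo. Deviations of same-numbered arrays correlated by 0.0992, 0.0763 and 0.226, and those of differently numbered arrays by −0.153 to 0.0805, so the data alone do not settle the pairing. P-values measure the spread between these samples, which may be technical in part. Named pathway and marker genes were those past the threshold, and in each pathway list the 2 further tested genes with the largest absolute difference. Nearest patterns were sought for the tested ligands with the lowest and the highest difference. Axin2, Ror2, Wnt1, Wnt3, Wnt3a, Sox1, Sox2, Pax6 and the notochord and nephric genes are named beside them, chosen after their values were seen, as was the comparison with olfactory receptors. The 9 ligands and the lists were chosen with earlier results of these data known. Alternatives were no block, a random block, other filters, rescaled arrays, a variance trend, robust variances and leaving out pairs or arrays.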

Additional observations from a re-analysis of the deposited data

How the results depend on the processing

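No ligand was called under any alternative. Wnt5a stayed lower in ventral tissue under all 17 run for it, from −1.16 to −0.61, with adjusted p from 0.137 to 0.529. Without the replicate block its adjusted p was 0.246, and the block changed no call among the ligands. Wnt4, Wnt9a and Wnt9b kept their sign. Leaving out a pair turned the sign of Wnt2 (−0.24 to 0.093), Wnt6 (−0.037 to 0.033) and Wnt11 (−0.24 to 0.19). Leaving out 1 array without the block turned Wnt2 (0.065 without dorsal 3), Wnt2b (0.0047 without dorsal 1), Wnt5b (−0.035 without ventral 3 and −0.029 without dorsal 1), Wnt6 (0.072 without ventral 2, 0.033 without dorsal 1 and 0.0023 without dorsal 3) and Wnt11 (0.19 without ventral 3). Without a pair Porcn ran from −0.24 to 0.090, Rspo1 from −0.73 to 0.021, Wnt7a from −0.32 to 0.21 and the shift of Wnt2 against Wnt2b from −0.15 to 0.17.

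Over all genes, 62 were called (37 higher and 25 lower in ventral tissue), 59 without the replicate block, 10 (8 and 2) without the filter, 23 (15 and 8) with the filter at the 25th percentile, and 94 (56 and 38) with a variance trend. Leaving out a pair gave 22 to 54 higher in ventral tissue. The R-spondin list had 0 calls without the block, without the filter and with the lower filter, and 0 to 1 without a pair. Its median was −0.27 with either filter change and −0.36 to −0.16 without a pair. The antagonists had 0 calls without the filter and 0 to 1 without a pair, and the co-receptors 1 with a trend and 0 to 1 without a pair. Without a pair the medians ran from −0.25 to 0.26 (Frizzled), −0.040 to 0.066 (co-receptors) and −0.15 to −0.091 (beta-catenin core). The cause was not tested. Arrays left out singly, the random block and robust variances were added after seeing the data.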
